A study of Mus musculus with 9 samples.

Results

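The kinesin motor family was read in mouse embryonic fibroblasts (MEFs) made to overexpress p21 or p16. Its members are the 42 genes, of 24062 in the deposited table of counts, whose symbol begins with Kif or Kifc followed by a digit. They were sorted by known role into 13 mitotic kinesins, 17 transport kinesins, 10 kinesins of cilia, centrioles, signalling or other roles, and 2 copies of other members. The sorting was made with earlier results of these data known. Kif2a, which works both in mitosis and outside it, was put in the third class, so counts of the mitotic class leave it out. Of the 42, 38 had enough reads to be tested: 12 mitotic, all 17 transport, 8 of the third class and 1 copy. Kif2b and the pseudogene Kif4-ps had no read in any library, Kif12 had at most 2 reads in a library and Kif19a at most 10. Cenpe, the kinetochore kinesin also called Kif10, has a symbol outside the pattern and is given with the partners of the mitotic kinesins.

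RNA was sequenced from 9 libraries of C57BL/6 MEFs, primary connective tissue cells grown from embryos. Control cells carried the empty lentiviral vector, p21 cells a lentivirus that overexpresses p21, and p16 cells overexpressed p16, with 3 libraries per group and RNA taken 10 days later. The titles mark the p21 and p16 libraries as senescent and the empty vector libraries as control, while the status field reads senescent for the control libraries too. The labels name neither the promoter of the constructs nor how many cells took them up. The p16 samples were registered apart from the others and carry different label fields, so a separate preparation, had there been one, cannot be told apart from p16 itself.

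Libraries held 56864342 to 76054820 counts. Levels are in CPM, the reads of a gene per 1000000 reads of its library with TMM scaling, given for replicates 1, 2 and 3 in that order or as mean ± SD with n = 3. Differences are log2 fold changes with their standard error (SE) from edgeR's quasi-likelihood test, fitted to all 14572 genes with enough reads, and a gene was called at a Benjamini-Hochberg adjusted p under 0.05. The labels do not say that replicates were separate embryos or cultures, so the p-values measure the spread between these libraries. Replicate 3 of each group was the one with Xist reads above 100 CPM and little Ddx3y. The Cdkn1a gene, which encodes p21, stood at 1218, 1087 and 1085 CPM in p21 cells and between 316.7 and 435.2 CPM in all other libraries. Cdkn2a, which encodes p16, stood at 1069, 1036 and 944.4 CPM in p16 cells and at no more than 112.9 CPM elsewhere. Summed fibroblast markers ran from 25126 to 36560 CPM in control, 29433 to 33129 CPM in p21 and 30731 to 35613 CPM in p16 libraries.

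Kinesins are motor proteins that turn ATP hydrolysis into movement along microtubules or into the trimming of microtubule ends. Mitotic kinesins build the spindle, move chromosomes and complete cytokinesis, and their genes are transcribed mainly in the G2 and M phases. Transport kinesins carry vesicles, organelles, RNA and ciliary cargo in cells whether or not they divide. Both p21 and p16 inhibit cyclin-dependent kinases. In resting cells the DREAM repressor binds many late cell cycle genes through a promoter element called the cell cycle genes homology region (CHR), which often lies downstream of CCAAT boxes bound by the factor NF-Y.

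The letters of the CHR, TTTGAA, were searched on both strands of the RefSeq promoter windows of build GRCm38.p6, from 250 bases before to 50 bases after each transcript start. Of the 42 members, 33 had a window. At least 1 match lay in 10 of 12 mitotic windows (83.33%), against 1 of 13 transport windows, 17.89% of all 32851 windows and 11.82% of the 13732 windows of tested genes. The 13 transport windows come from 11 of the 17 transport kinesins. Kif13b, Kif21b, Kif5a, Kif5b, Kifc2 and Kifc3 have no window. Within 50 bases of the start, a match lay in 8 of the 12 mitotic windows, against 4.944% of all windows and 3.044% of those of tested genes. The 30 bases around the match nearest the start are shown for each mitotic kinesin that has one, then for Kifc5b and for the transport kinesin with a match, each on the strand that reads TTTGAA, 5′ to 3′, with those letters in capitals.
Kif11, chr19:37376351-37376380, minus strand: ccgcgcctcaatTTTGAAaaatggagacga
Kif15, chr9:122951050-122951079, minus strand: gatggccgcagaTTTGAAtttggcgcccca
Kifc1, chr17:33890615-33890644, plus strand: acacccgccactTTTGAAtttcaacctccg
Kif22, chr7:127042420-127042449, plus strand: ccgcttctctctTTTGAAttaccggggccc
Kif4, chrX:100626072-100626101, plus strand: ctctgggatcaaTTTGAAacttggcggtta
Kif18b, chr11:102925104-102925133, minus strand: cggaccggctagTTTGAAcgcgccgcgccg
Kif23, chr9:61946780-61946809, minus strand: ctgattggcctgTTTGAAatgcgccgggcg
Kif20b, chr19:34922353-34922382, plus strand: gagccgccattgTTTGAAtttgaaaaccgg
Kif2c, chr4:117178858-117178887, plus strand: gcattactcaggTTTGAAagagcagcctgg
Kif14, chr1:136467608-136467637, plus strand: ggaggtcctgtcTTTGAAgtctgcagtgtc
Kifc5b, chr17:26917108-26917137, minus strand: acaccagtcactTTTGAAtttcaacctccg
Kif1a, chr1:93082507-93082536, minus strand: tttgacagcctcTTTGAAcattgctcctaa

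The windows of Kif14, Kif2c and Kif1a begin at RefSeq starts that lie 1505, 3867 and 19471 bases inside the GENCODE gene, so those pieces are not at the outermost start. The RefSeq start of Kif4 lies 328 bases inside its gene and as far from the nearest GENCODE transcript start. Its match counts among the 8 near the start by the RefSeq position only. The mitotic windows without the letters are those of Kif18a and Kif2b, and Kif20a has no entry. In the third class, Kif26b and Kif27 held a match. CCAAT lay in 8 of 12 mitotic windows (66.67%), in 4 of 13 transport windows (30.77%) and in 37.41% of all windows. Of the letters of an E2F site, TTTGGCGC lay in the mitotic windows of Kif15 and Kif18a, with 0.5144% of all windows holding them, and GGCGGGAA in none of the 12, with 2.192%. In the piece of Kif15 shown above, the E2F letters directly follow those of the CHR. These are matches of letters, not mapped binding sites.

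**Figure D1:**
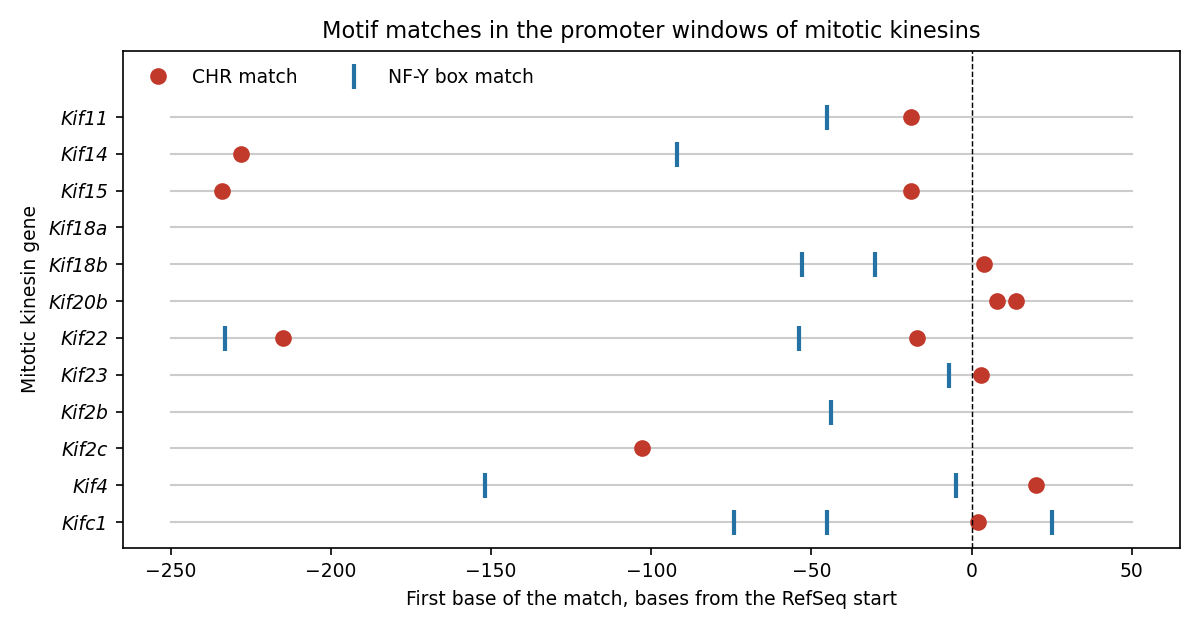
Position of CHR and NF-Y box (CCAAT) letters in the RefSeq promoter windows of 12 mitotic kinesin genes, in bases from the transcript start (dashed line); each grey line is a window. In 8 of the 12 windows a CHR match lies within 50 bases of the start, and the windows of Kif18a and Kif2b hold none.

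For a fuller view, the 250 bases before the start of Kif11, a mitotic kinesin gene that fell by over 2-fold in p21 cells, and of Kif1c, the transport kinesin with the highest level, are shown on the plus strand of GRCm38.p6 as RefSeq gives them. Capitals mark TTTGAA or CCAAT on either strand.
Kif11, chr19:37376132-37376381: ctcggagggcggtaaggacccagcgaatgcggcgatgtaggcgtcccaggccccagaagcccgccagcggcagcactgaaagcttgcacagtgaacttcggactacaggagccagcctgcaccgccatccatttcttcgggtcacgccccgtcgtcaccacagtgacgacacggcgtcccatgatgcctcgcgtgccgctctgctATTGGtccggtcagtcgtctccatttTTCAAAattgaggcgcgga
Kif1c, chr11:70700298-70700547: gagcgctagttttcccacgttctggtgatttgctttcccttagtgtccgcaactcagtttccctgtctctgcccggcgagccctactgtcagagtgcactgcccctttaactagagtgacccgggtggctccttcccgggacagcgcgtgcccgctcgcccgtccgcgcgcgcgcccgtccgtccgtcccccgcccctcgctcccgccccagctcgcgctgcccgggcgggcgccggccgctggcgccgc
In Kif11 the CCAAT letters begin 45 bases and the CHR letters 19 bases before the start, both on the minus strand. Neither set of letters is in the window of Kif1c. Kif15, Kif14 and Kif4 are shown by their short pieces only, because the bases before their RefSeq starts overlap or lie within the annotated gene.

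All 12 tested mitotic kinesins fell in p21 cells relative to control cells, and 10 of them fell at least 2-fold. Kif15 and Kif14 fell most, to 39.4% and 39.6% of the control level, and Kif18a least, to 59.2%. Over all genes tested, 20.7% were called lower and 1.94% were called at least 2-fold lower in this comparison. The median log2 fold change was -1.13 over the 12 genes and -0.01 over all genes tested. For each of the 12 the 3 p21 libraries lay below the 3 control libraries, as they did for 25.7% of all genes tested. All 12 were called under each of the 3 scalings tried and with any of the 9 libraries left out. In bulk RNA, fewer cells in G2 and M phase and less RNA of these genes per cell cannot be told apart. Mki67, a marker of cycling cells, moved with them: 281.2, 247.5 and 274.9 CPM in control, 92.3, 114.5 and 110.2 CPM in p21 and 171.1, 191 and 166.8 CPM in p16 libraries. How much of the fall goes with the share of cycling cells was not tested.

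**Figure D2:**
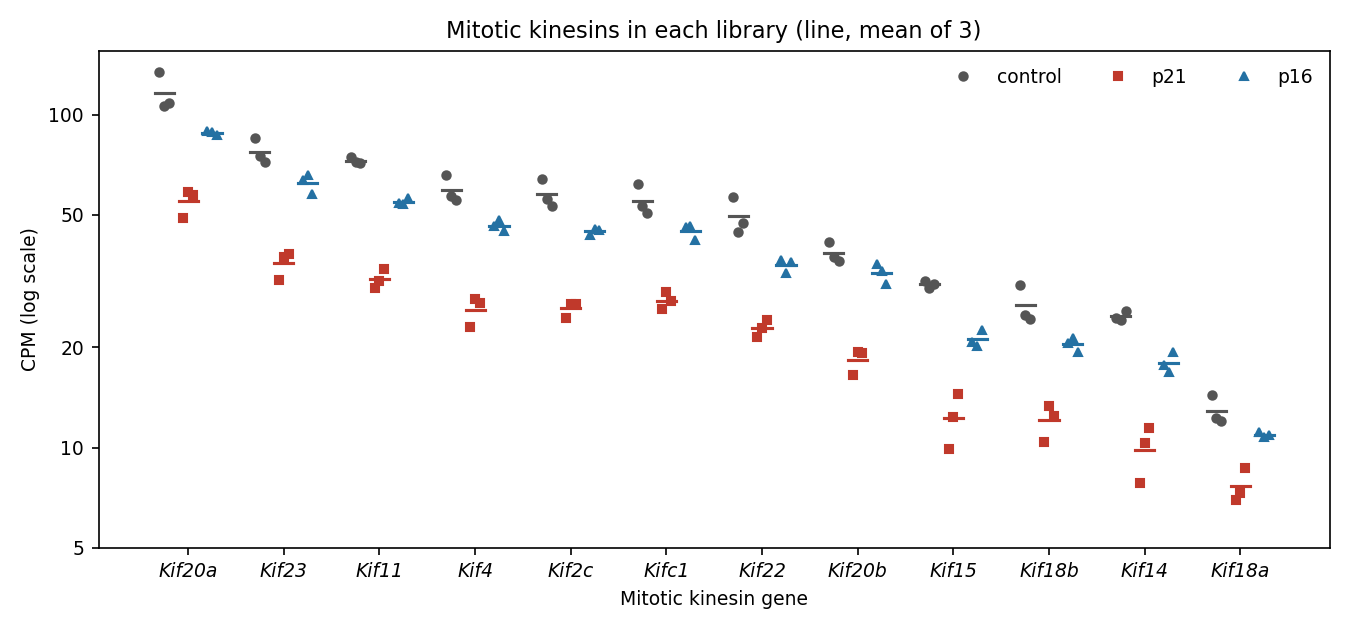
Level of each tested mitotic kinesin in CPM on a log axis, 1 point per library and a line at the mean of each group of 3 (control, p21, p16). For every gene the 3 p21 libraries are the lowest, the 3 p16 libraries lie between, and the 3 control libraries are the highest.

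Among the motors that set up the spindle, Kif11 (chromosome 19, 37376403 to 37421859, plus strand of GRCm38), which slides antiparallel microtubules apart to separate the poles, stood at 74.6, 71.9 and 71.5 CPM in the control libraries, at 30.1, 31.8 and 34.5 CPM in those with p21 and at 54.1, 54.1 and 56.2 CPM in those with p16. The 3 groups did not overlap, and the replicates of each lay close together. Kif11 was 2.26-fold lower in p21 than in control cells (-1.18 ± 0.0549 SE on the log2 scale, adjusted p = 6.52e-06).

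Kif15 (chromosome 9, 122951046 to 123018733, plus strand) can take over part of the work of Kif11 and keeps the spindle bipolar. It stood at 31.7, 30.2 and 31 CPM in the control libraries, at 9.87, 12.4 and 14.4 CPM in those with p21 and at 20.8, 20.1 and 22.6 CPM in those with p16. Its fall in p21 cells was 2.54-fold (log2 fold change -1.34 ± 0.116 SE, adjusted p = 3.61e-05), with p21 replicate 1 the lowest library.

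Kifc1 (chromosome 17, 33875659 to 33890661, minus strand) walks toward the minus end and focuses spindle poles. It averaged 55.2 ± 5.97 CPM in control, 27.6 ± 1.65 in p21 and 44.8 ± 2.41 in p16 cells, and fell in p21 cells to 50.1% of the control level (adjusted p = 2.71e-05). Kifc5b (chromosome 17, 26917091 to 26932583, plus strand) is a near-identical copy: the longest coding transcripts of both genes are 97.98% identical over 2326 aligned bases. The pieces of their promoters printed above differ at 2 bases. Kifc5b stood at 11.4 ± 0.565, 5.58 ± 0.397 and 8.86 ± 0.124 CPM in control, p21 and p16 cells. Per kilobase (kb) of exon, the level of Kifc1 was 5.26 ± 0.304 times that of Kifc5b in control, 5.39 ± 0.57 in p21 and 5.48 ± 0.285 in p16 cells. How reads that match both genes were counted is not given in the sources used here, so the separate levels of the pair are uncertain.

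The chromokinesins bind chromosome arms. Kif22 (chromosome 7, 127027729 to 127042471, minus strand), which pushes arms toward the spindle equator, stood at 56.6, 44.5 and 47.4 CPM in the control libraries, at 21.5, 22.9 and 24.2 CPM in those with p21 and at 36.6, 33.4 and 36 CPM in those with p16. Control replicate 1 was the highest, and the groups did not overlap. Kif22 was 2.17-fold lower in p21 than in control cells (adjusted p = 2.4e-05).

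Kif4 (chromosome X, 100625737 to 100727214, plus strand) acts in chromosome condensation and at the central spindle. It stood at 65.7, 57 and 55.3 CPM in the control libraries, at 23, 27.9 and 27.1 CPM in those with p21 and at 46.4, 48.1 and 44.8 CPM in those with p16, and was 2.29-fold lower in p21 than in control cells (adjusted p = 1.66e-05). Of the exon length of Kif4, 15.1% overlaps Pdzd11 on the other strand, and the library kit does not mark strand. Pdzd11 differed by -0.04 on the log2 scale between p21 and control cells (adjusted p = 0.515).

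The kinesin-8 and kinesin-13 motors shorten microtubules. Kif18a (chromosome 2, 109280738 to 109341747, plus strand), which dampens chromosome movements at the metaphase plate, stood at 14.4, 12.3 and 12 CPM in the control libraries, at 6.98, 7.3 and 8.67 CPM in those with p21 and at 11.2, 10.7 and 10.9 CPM in those with p16. Its fall in p21 cells, 1.69-fold, was the smallest of the 12 (log2 fold change -0.76 ± 0.102 SE, adjusted p = 0.000412). Its relative Kif18b (chromosome 11, 102905529 to 102925124, minus strand), which limits astral microtubules, was 2.22-fold lower (26.7 ± 3.56 CPM in control against 12.1 ± 1.51 CPM in p21 cells, adjusted p = 6.75e-05).

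Kif2c (chromosome 4, 117159639 to 117182639, minus strand), the depolymerase that corrects wrong attachments at centromeres, averaged 57.7 ± 5.86 CPM in control, 26.2 ± 1.52 in p21 and 44.7 ± 0.952 in p16 cells. It was 2.21-fold lower in p21 than in control cells (adjusted p = 1.23e-05). Its subfamily relative Kif2a, which also works outside mitosis, stood at 65.6 ± 4.4, 58.7 ± 1.38 and 60.2 ± 3.73 CPM and was not called in any comparison, although it was lower in p21 than in control cells by library size alone (log2 fold change -0.20, adjusted p = 0.0262). Per kb of exon, the level of Kif2c was 1.29 ± 0.0527 times that of Kif2a in control, 0.654 ± 0.049 in p21 and 1.09 ± 0.0829 in p16 cells.

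The remaining motors of the class serve the midzone and cytokinesis. Kif20a (chromosome 18, 34624613 to 34633277, plus strand), which brings the chromosomal passenger complex to the central spindle, stood at 134.3, 106.1 and 108.2 CPM in the control libraries, at 49, 58.5 and 57.3 CPM in those with p21 and at 89.2, 88.6 and 87.2 CPM in those with p16. It was 2.12-fold lower in p21 than in control cells (adjusted p = 4.44e-05), and at 26.8 ± 3.62 CPM per kb it had the highest mitotic level in control cells. Of its exon length, 29.3% overlaps Cdc23 on the other strand, which was lower by a smaller amount (log2 fold change -0.30, adjusted p = 0.00266).

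Kif23 (chromosome 9, 61915905 to 61946774, minus strand), a subunit of the centralspindlin complex, averaged 77.4 ± 6.95 CPM in control, 35.8 ± 3.46 in p21 and 62.3 ± 4.21 in p16 cells, and was 2.16-fold lower in p21 than in control cells (adjusted p = 2.47e-05). Kif20b (chromosome 19, 34922361 to 34975745, plus strand), which acts in the completion of cytokinesis, stood at 41.5, 37.4 and 36.3 CPM in the control libraries, at 16.5, 19.3 and 19.2 CPM in those with p21 and at 35.5, 34 and 31 CPM in those with p16. It was 2.09-fold lower in p21 cells (adjusted p = 2.06e-05), while the highest p16 library lay just under the lowest control library.

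Kif14 (chromosome 1, 136466343 to 136531511, plus strand), which works with the citron kinase at the midbody, stood at 24.5, 24.2 and 25.6 CPM in the control libraries, at 7.84, 10.3 and 11.4 CPM in those with p21 and at 17.7, 16.9 and 19.3 CPM in those with p16. It was 2.52-fold lower in p21 than in control cells (-1.33 ± 0.12 SE on the log2 scale, adjusted p = 4.46e-05). Replicate 1 was the lowest p21 library for all 12 mitotic kinesins and the p21 library with the most Cdkn1a, and control replicate 1 was the highest control library for 11 of them. Without p21 replicate 1 the median log2 fold change of the 12 was -1.05, and without control replicate 1 it was -1.03.

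The fall in p16 cells was smaller. Of the 12 mitotic kinesins, 7 were called lower than in control cells, where 3.65% of all genes tested were, and the median log2 fold change was -0.38 against -0.01 over all genes. None of the 12 was called at least 2-fold lower, and 0.0618% of all genes tested were. All 12 nevertheless had their 3 p16 libraries below the 3 control libraries, which held for 15.1% of all genes tested. The groups share the control libraries with the comparison of p21, so the 2 sets of values are not independent.

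The 7 genes called were Kif15 (1.46-fold, adjusted p = 0.0223), Kif22 (1.4-fold, adjusted p = 0.0148), Kif14 (1.38-fold, adjusted p = 0.0439), Kif11 (1.33-fold, adjusted p = 0.00611), Kif20a (1.32-fold, adjusted p = 0.0382), Kif2c (1.29-fold, adjusted p = 0.0197) and Kif4 (1.28-fold, adjusted p = 0.0365). Kif18b (log2 fold change -0.39, adjusted p = 0.063), Kif23 (-0.31, adjusted p = 0.0629), Kifc1 (-0.30, adjusted p = 0.052), Kif18a (-0.24, adjusted p = 0.179) and Kif20b (-0.20, adjusted p = 0.166) were not called. With the replicate number as a block in edgeR's test, 10 of the 12 were called, the 3 added being Kif18b (adjusted p = 0.0288), Kif23 (adjusted p = 0.0265) and Kifc1 (adjusted p = 0.0162). The same 3 were added by DESeq2 (adjusted p = 0.0168, 0.0181 and 0.0157) and by library size alone (adjusted p = 0.0456, 0.0447 and 0.0323). The count fell with some single libraries left out. It was 1 without p16 replicate 1, 1 without p16 replicate 2 and 3 without p16 replicate 3. Without control replicate 2 it was 2, and without control replicate 1 it was 4. Over all genes tested, calls lower fell from 532 to 92, 66, 163, 160 and 385 in these runs, in that order. The median log2 fold change of the 12 was -0.37, -0.38, -0.36, -0.40 and -0.28, against -0.38 with all libraries. Kif11 alone was called with every one of the 9 libraries left out. The copy Kifc5b was 1.28-fold lower (adjusted p = 0.0277), a call lost with control replicate 1 or 2 or any 1 p16 library left out, at an adjusted p of 0.0624 to 0.0987.

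Set directly against p16 cells, p21 cells had lower levels of all 12 mitotic kinesins, where 6.64% of all genes tested were called lower. The median log2 fold change was -0.77, and for each of the 12 the p21 libraries lay below the p16 libraries, which held for 18.5% of all genes. The difference was largest for Kif14 and Kif20b, both 1.83-fold (adjusted p = 0.00254 and 0.000564), and smallest for Kif18a, 1.43-fold (adjusted p = 0.0123). Kif18a did not pass without p21 replicate 1 (adjusted p = 0.0593), leaving 11. Kif11 stood 1.71-fold lower in p21 than in p16 cells (adjusted p = 0.000361).

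**Figure D3:**
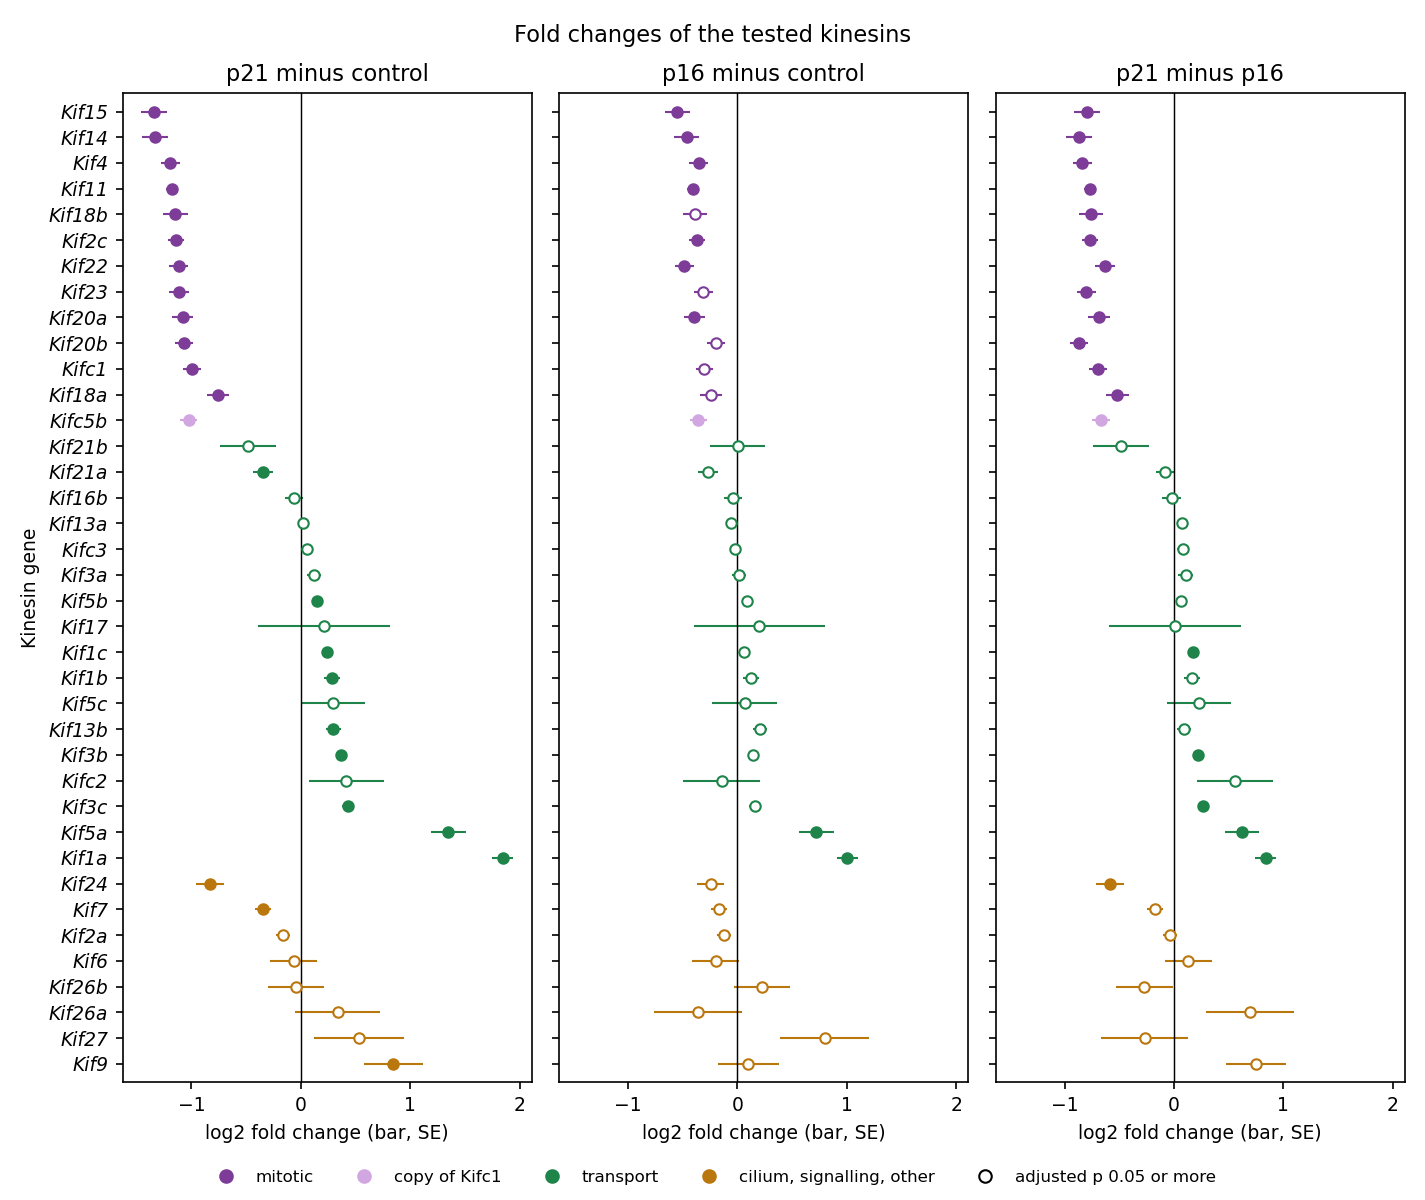
Log2 fold change of each of the 38 tested kinesins in 3 panels, p21 and p16 each against control and p21 against p16, coloured by class, with bars of 1 SE; open points have an adjusted p of 0.05 or more. The 12 mitotic kinesins lie left of 0 in all 3 panels and furthest in p21 minus control, and Kif1a and Kif5a lie furthest right among the called transport kinesins.

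Of the 17 transport kinesins 8 rose in p21 cells, 1 fell and 8 were not called, where 19.3% of all genes tested were called higher and 39.9% were called in either direction. The median log2 fold change over the 17 was 0.24. For 8 of the 17 all p21 libraries lay above all control libraries, which held for 24.0% of all genes tested, and for 1 all lay below, which held for 25.7%. Apart from Kif1a and Kif5a, no transport kinesin changed by as much as 1.5-fold among those called. By the 3 scalings tried, 8, 8 and 7 were called higher, Kif5b being the gene lost with library size alone.

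Kif1a (chromosome 1, 93015464 to 93101951, minus strand), a fast motor of synaptic and dense-core vesicles best known from neurons, rose most. It stood at 52, 46.8 and 46.6 CPM in the control libraries, at 196.5, 169.1 and 156.3 CPM in those with p21 and at 98.6, 105.2 and 88 CPM in those with p16. The groups were far apart, with every p16 library between the control and the p21 libraries. Kif1a was 3.59-fold higher in p21 than in control cells (1.84 ± 0.0966 SE on the log2 scale, adjusted p = 7.84e-06), 2.01-fold higher in p16 than in control cells (adjusted p = 0.00226) and differed 1.79-fold between p21 and p16 cells (adjusted p = 0.00116). All 3 calls held with any of the 9 libraries left out.

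Kif5a (chromosome 10, 127225696 to 127263348, minus strand), the conventional kinesin heavy chain that is largely restricted to neurons, followed the same order at a low level. It stood at 2.32, 2.42 and 3.01 CPM in the control libraries, at 7.75, 5.84 and 6.09 CPM in those with p21 and at 4.31, 3.68 and 4.78 CPM in those with p16, again without overlap. It was 2.54-fold higher in p21 than in control cells (adjusted p = 0.000206). Between p16 and control cells it was 1.65-fold higher (adjusted p = 0.029), a call lost without any 1 p16 library or without control replicate 1 or 2, at an adjusted p of 0.0608 to 0.0945. Between p21 and p16 cells it was 1.54-fold higher (adjusted p = 0.0303), which did not pass without p21 replicate 1 (adjusted p = 0.127), p16 replicate 1 (adjusted p = 0.0897) or p16 replicate 2 (adjusted p = 0.104).

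Markers of neurons and glia were read beside this pair. In each group, 9 of 14 such genes had a mean under 1 CPM. Among these were Snap25, Rbfox3 and Elavl3, at no more than 0.0492 CPM in any library. The summed markers ran from 147 to 167 CPM in control, 209 to 213 CPM in p21 and 161 to 173 CPM in p16 libraries. Of the 9 tested, Stmn2 was higher with p21 (136.1 ± 15.6 against 83.9 ± 8.9 CPM in control, adjusted p = 0.00134) and Map2 was lower (5.1 against 8.47 CPM, adjusted p = 0.0187). Summed skeletal muscle markers had the same order as Kif1a, 176 to 216 CPM in control, 347 to 366 CPM in p16 and 492 to 595 CPM in p21 libraries, carried by Acta1 and Des, the 2 of 6 that were tested, with Myog at 0 in control and p16 libraries. Macrophage markers summed to 10.2 to 13.7 CPM in control, 23.9 to 44 CPM in p21 and 7.7 to 13.1 CPM in p16 libraries. Of the 11 tested, 9 were called higher in p21 than in control cells. Over all genes tested, 19.3% were called higher and 20.7% lower in this comparison. The part of such cells in the levels of Kif1a and Kif5a was not tested.

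**Figure D4:**
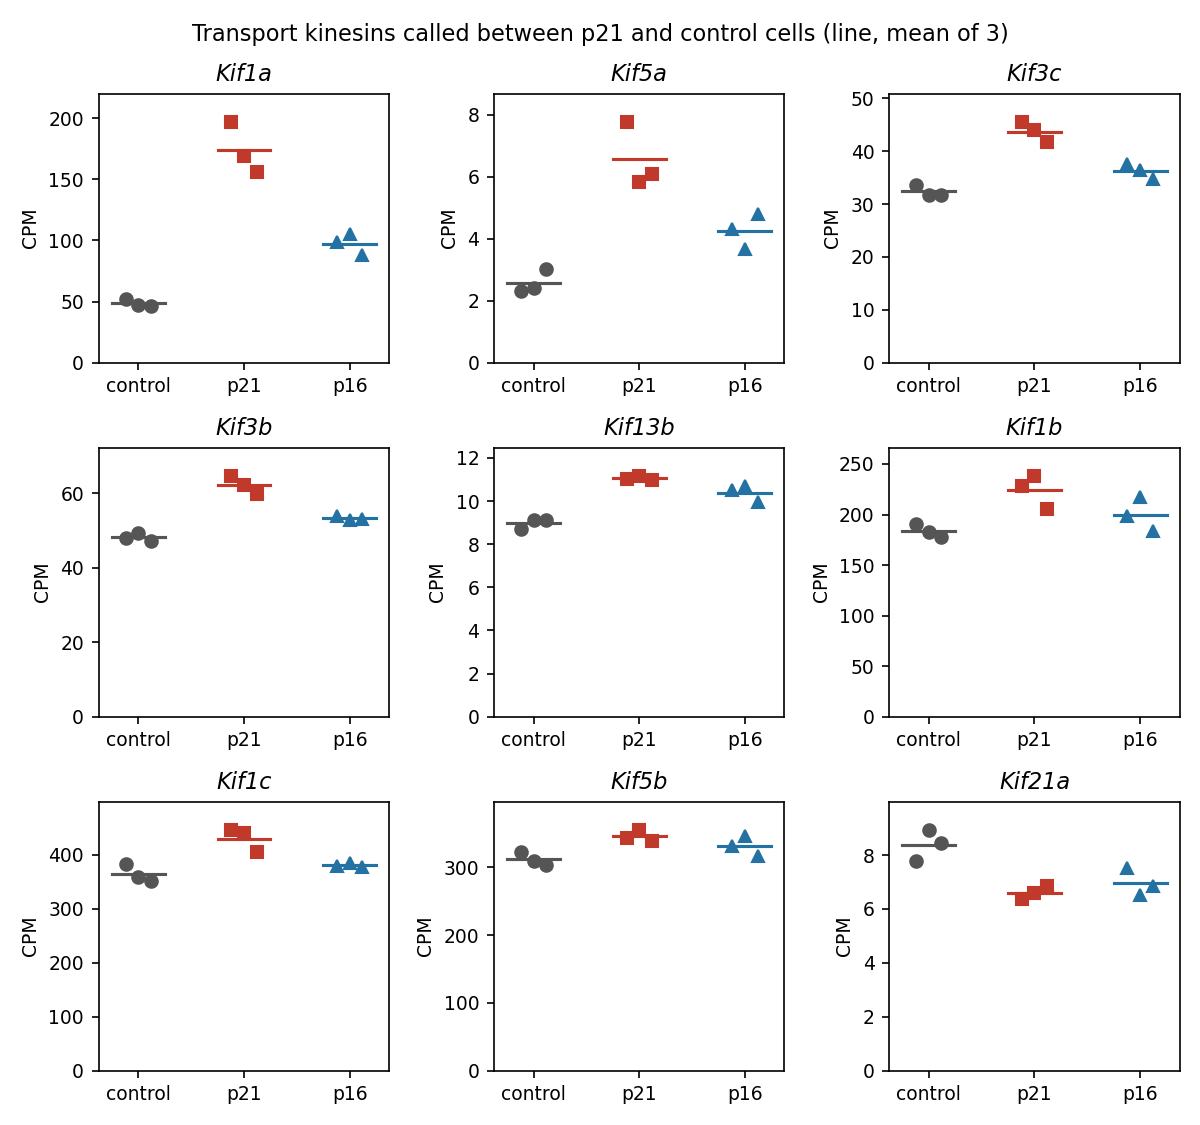
Level in CPM of the 9 transport kinesins called between p21 and control cells, 1 panel per gene with an axis from 0, 1 point per library and a line at the mean of 3. Kif1a and Kif5a show the largest differences, the next 6 genes show p21 libraries slightly above control libraries, and Kif21a shows them below. The 3 groups do not overlap for Kif1a, Kif5a, Kif3c, Kif3b and Kif13b.

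Per kb of exon, Kif1a made up 7.91 ± 0.158% of the summed Kif1 level in control, 20.6 ± 1.34% in p21 and 14.1 ± 0.816% in p16 cells, Kif1b made up 15.9 ± 0.176%, 14.1 ± 0.543% and 15.3 ± 0.763%, and Kif1c 76.2 ± 0.0282%, 65.4 ± 0.988% and 70.6 ± 1.56%. The share of Kif1a was thus under that of Kif1b in control and above it in p21 cells. Kif5a made up 0.917 ± 0.161%, 2.07 ± 0.33% and 1.42 ± 0.248% of the summed Kif5 level, of which Kif5b held 96.8 ± 0.369%, 95.4 ± 0.88% and 96.3 ± 0.675%. These shares are descriptions of the levels already given and carry no test.

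The broadly expressed cargo motors made up most of the class. Kif1c (chromosome 11, 70700548 to 70731964, plus strand), which carries Golgi-derived vesicles and integrins, had the highest level of all members per kb of exon, 50 ± 2.25 CPM per kb in control cells. It stood at 382.4, 357.8 and 351.4 CPM in the control libraries, at 445.1, 439.6 and 404.2 CPM in those with p21 and at 379.3, 384.4 and 376.3 CPM in those with p16, so that p21 stood above both other groups while p16 and control overlapped. It was 1.18-fold higher in p21 than in control cells (adjusted p = 0.00469). Its 1.13-fold difference from p16 cells (adjusted p = 0.0489) was lost without control replicate 2, p21 replicate 1 or 2 or any 1 p16 library, at an adjusted p of 0.0819 to 0.177.

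Kif5b (chromosome 18, 6201002 to 6242174, minus strand), the ubiquitous conventional kinesin, averaged 312.4 ± 9.69 CPM in control, 345.8 ± 8 in p21 and 331.4 ± 14.6 in p16 cells. Its 1.11-fold rise in p21 cells (adjusted p = 0.032) was lost with 1 of 5 libraries left out, control replicate 2 or 3, p21 replicate 1 or 2 or p16 replicate 1, at an adjusted p of 0.0503 to 0.0895, and with library size alone (0.0564). Kif1b (chromosome 4, 149176319 to 149307693, minus strand), a carrier of mitochondria and synaptic vesicle precursors, stood at 183.6 ± 6.83, 223.9 ± 16.7 and 199.7 ± 16.5 CPM in control, p21 and p16 cells. It was 1.22-fold higher in p21 than in control cells (adjusted p = 0.0115), and its difference from p16 cells (log2 fold change 0.16, adjusted p = 0.165) was called only with the replicate block (adjusted p = 0.029).

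Of the heterotrimeric kinesin-2 motors, which carry intraflagellar and other cargo, Kif3b and Kif3c rose in p21 cells while their shared partner Kif3a was not called. Kif3b (chromosome 2, 153291413 to 153333390, plus strand) stood at 48, 49.4 and 47.3 CPM in the control libraries, at 64.6, 62.2 and 59.9 CPM in those with p21 and at 54.1, 52.9 and 53.1 CPM in those with p16. The groups did not overlap. It was 1.29-fold higher in p21 than in control cells (adjusted p = 0.000211) and 1.17-fold higher than in p16 cells (adjusted p = 0.0121), the latter lost without p21 replicate 1 or p16 replicate 3 (adjusted p = 0.0553 and 0.05003).

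Kif3c (chromosome 12, 3365132 to 3406494, plus strand) stood at 32.4 ± 1.09, 43.7 ± 1.88 and 36.3 ± 1.42 CPM and was 1.35-fold higher in p21 than in control cells (adjusted p = 0.000211) and 1.21-fold higher than in p16 cells (adjusted p = 0.0108). The second call was lost without p21 replicate 1 (adjusted p = 0.0534). Of its exon length, 40.7% overlaps genes on the other strand, among them 1110002L01Rik, which was also higher in p21 cells (log2 fold change 0.42, adjusted p = 0.00697), and reads of both strands were not told apart. Neither Kif3b nor Kif3c was called between p16 and control cells (adjusted p = 0.0783 and 0.089), and both were with the replicate block (adjusted p = 0.0448 and 0.0341), Kif3b also with DESeq2 (adjusted p = 0.0333).

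Kif3a stood at 31.7 ± 1.97, 34.5 ± 2.14 and 32 ± 1.37 CPM (log2 fold change 0.12 ± 0.0647 SE between p21 and control, adjusted p = 0.164). Kifap3, the non-motor subunit that completes the trimer, stood at 63.1 ± 5.12 and 67.7 ± 1.36 CPM in control and p21 cells (adjusted p = 0.223).

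Kif13b (chromosome 14, 64647265 to 64809617, plus strand), which carries phosphoinositide-linked and membrane cargo, stood at 8.72, 9.12 and 9.12 CPM in the control libraries, at 11, 11.1 and 11 CPM in those with p21 and at 10.5, 10.7 and 9.94 CPM in those with p16, and was 1.23-fold higher in p21 than in control cells (adjusted p = 0.00531). Kif21a (chromosome 15, 90933276 to 91049948, minus strand), which holds back microtubule growth at the cell cortex, was the transport kinesin that fell: 7.79, 8.92 and 8.44 CPM in control against 6.36, 6.57 and 6.86 CPM in p21 libraries (1.27-fold, adjusted p = 0.013). That call was lost without control replicate 2 or p21 replicate 1 (adjusted p = 0.0564 and 0.0576).

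The transport kinesins not called between p21 and control cells were Kif3a, Kif5c, Kif13a, Kif16b, Kif17, Kif21b, Kifc2 and Kifc3. Kif21b had the largest difference in the downward direction (28.7 ± 9.38 against 20.6 ± 4.54 CPM, log2 fold change -0.48 ± 0.255 SE, adjusted p = 0.16). It was called without control replicate 1, the lowest control library (-0.73, adjusted p = 0.0176). Against p16 cells Kif21b was called only with the replicate block (log2 fold change -0.48, adjusted p = 0.0423). Kif13a and Kifc3, both above 50 CPM, differed by 0.02 ± 0.0437 SE and 0.06 ± 0.0477 SE on the log2 scale between p21 and control cells (adjusted p = 0.716 and 0.343). Kif17 stayed under 0.25 CPM in every library.

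In p16 cells the transport class showed 2 genes called higher, Kif1a and Kif5a, and 0 lower, where 3.57% of all genes tested were called higher and 7.22% in either direction. Its median log2 fold change was 0.07. For 5 of the 17 all p16 libraries lay above all control libraries, a pattern found for 13.6% of all genes. Over the 25 tested members outside the mitotic class and the copy, the count of calls was 2, 3 with DESeq2, 4 with the replicate block and 1 without control replicate 1, control replicate 2 or any 1 of the p16 libraries, and Kif1a was the gene that kept its call. Directly against p16 cells, p21 cells had 5 transport kinesins called higher (Kif1a, Kif5a, Kif3c, Kif3b and Kif1c) and 0 lower, where 6.19% of all genes tested were called higher and 12.8% in either direction. With Kif24, which was lower, 6 of the 25 members were called, against 1, Kif1a, with p21 replicate 1 left out and 3 with p16 replicate 2 or p16 replicate 3 left out.

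Among the 8 tested kinesins of cilia, centrioles, signalling and other roles, 1 rose and 2 fell in p21 relative to control cells, a share of 37.5% where 39.9% of all genes tested were called. Kif24 (chromosome 4, 41390745 to 41464887, minus strand), a centriolar kinesin-13 that holds back cilium formation, stood at 4.55, 5.32 and 4.81 CPM in the control libraries, at 2.49, 3.17 and 2.59 CPM in those with p21 and at 3.79, 4.24 and 4.36 CPM in those with p16. Its p21 level was 1.78-fold lower than in control cells (adjusted p = 0.000858) and 1.5-fold lower than in p16 cells (adjusted p = 0.0184), the latter lost without p21 replicate 1, p16 replicate 2 or p16 replicate 3 (adjusted p = 0.0876, 0.0646 and 0.0628). The p16 and control libraries did not overlap, yet their difference was not called (log2 fold change -0.24, adjusted p = 0.268).

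Kif7 (chromosome 7, 79698098 to 79715720, minus strand), a regulator of Hedgehog signalling at the tip of the cilium, stood at 12.9, 13.9 and 14.1 CPM in control and 10.6, 10.7 and 11 CPM in p21 libraries and was 1.27-fold lower (adjusted p = 0.00421). Of its exon length, 20.3% overlaps other genes, among them Ticrr, a DNA replication gene on the other strand that fell from 18.5 ± 2.66 to 8.52 ± 0.841 CPM (adjusted p = 8.38e-05). The part of reads from Ticrr in the difference of Kif7 was not tested. Kif9 (chromosome 9, 110476958 to 110525179, plus strand), a motor of motile cilia, had 40 to 72 reads in control and 87 to 91 reads in p21 libraries, or 0.76 ± 0.241 and 1.37 ± 0.139 CPM. It was 1.8-fold higher (adjusted p = 0.0333), a call lost without any 1 of 5 libraries, at an adjusted p of 0.0607 to 0.0851. Its difference between p21 and p16 cells was called only with the replicate block (adjusted p = 0.0229). Markers of multiciliated epithelium summed to 6.96 to 12.2, 10.5 to 12.7 and 9.72 to 10.9 CPM in control, p21 and p16 libraries. Of the 6 tested, 2 were called higher in p21 than in control cells, where 19.3% of all genes tested were. Tekt1 stood at 0 in all control and p16 libraries. Kif2a, Kif6, Kif26a, Kif26b and Kif27 were not called in any comparison. In p16 against control cells 0 of the 8 were called, where 7.22% of all genes tested were.

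Summed per kb of exon, the mitotic class reached 116 ± 11.5 in control, 53.8 ± 4.38 in p21 and 89.9 ± 1.7 CPM per kb in p16 cells. The transport class had the opposite order, 154 ± 3.22, 188 ± 7.08 and 166 ± 3.57 CPM per kb, and without Kif1a it was 149 ± 2.9, 170 ± 5.24 and 156 ± 2.65. The mitotic share of all kinesin transcripts per kb was 40.1% in control, 20.9% in p21 and 32.9% in p16 cells. The ratio of the mitotic to the transport sum was 0.821, 0.72 and 0.719 in control, 0.251, 0.295 and 0.312 in p21 and 0.547, 0.536 and 0.542 in p16 libraries. No 2 groups overlapped in this ratio. It restates the members' levels in 1 figure per library and was not tested.

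**Figure D5:**
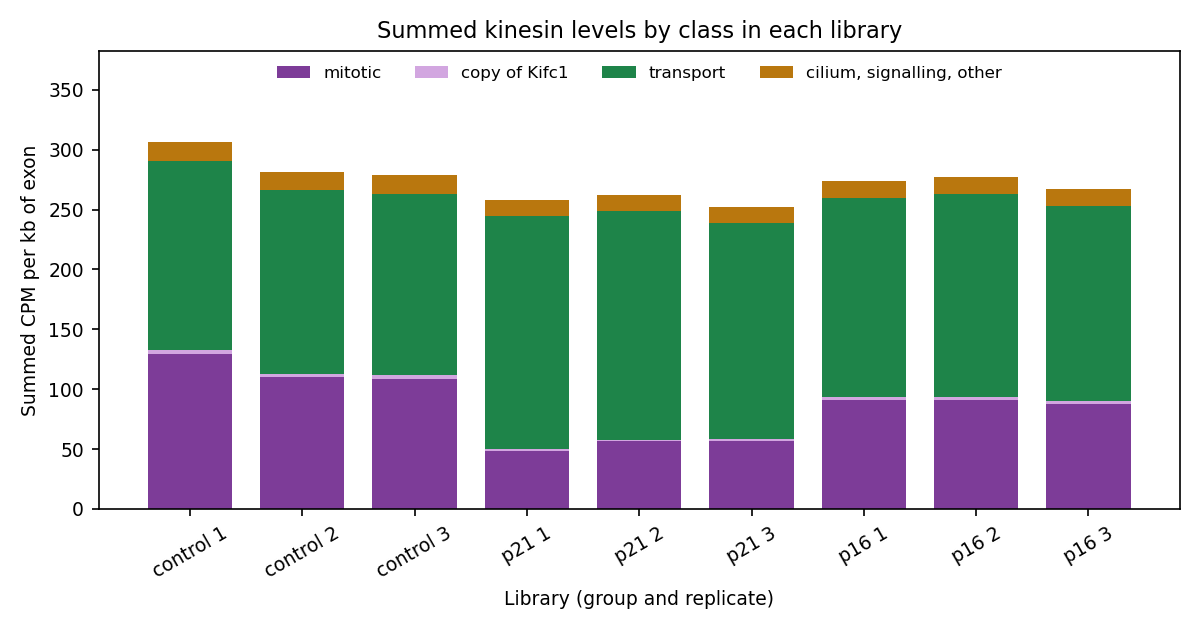
Summed CPM per kb of exon of the kinesins in each of the 9 libraries, stacked by class. The mitotic layer is about 110 to 130 in control, 50 to 60 in p21 and 90 in p16 libraries, while the transport layer is highest in the p21 libraries.

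In kinesin-4, mitotic Kif4 (log2 fold change -1.19), transport Kif21a (-0.34) and third-class Kif7 (-0.35) were called lower in p21 than in control cells. Kif21b (-0.48, adjusted p = 0.16) and Kif27 (0.53, adjusted p = 0.335) of that subfamily were not called. In kinesin-13, Kif2c (-1.14) and Kif24 (-0.83) were called lower and Kif2a (-0.16, adjusted p = 0.067) was not. Over all genes tested, 20.7% were called lower in this comparison. For 3 pairs of a mitotic and a transport kinesin the levels were set against each other. Per kb of exon, the level of Kif14, a kinesin-3, was 0.343 ± 0.00358 times that of its transport relative Kif13a in control, 0.135 ± 0.0286 in p21 and 0.259 ± 0.0194 in p16 cells. In kinesin-14, the level of Kifc1 was 1.27 ± 0.102 times that of Kifc3 in control, 0.609 ± 0.0219 in p21 and 1.04 ± 0.053 in p16 cells. In kinesin-4, the level of Kif4 was 8.38 ± 1.34 times that of Kif21a in control, 4.62 ± 0.371 in p21 and 7.86 ± 0.722 in p16 cells. In each pair the p21 libraries had the lowest ratios, without overlap with the other groups. These ratios follow from the levels above and carry no test.

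Most partners of the mitotic kinesins fell as well. Of 20 spindle and cytokinesis genes, 18 were lower in p21 than in control cells, 9 in p16 than in control cells and 18 in p21 than in p16 cells, with 0 higher in each, where 20.7%, 3.65% and 6.64% of all genes tested were called lower, and their median log2 fold changes were -1.04, -0.29 and -0.69. Prc1, the microtubule bundler to which Kif4 binds, fell from 154.4 ± 13.4 to 72.1 ± 3.57 CPM in p21 cells (2.14-fold, adjusted p = 1.01e-05). Ccnb1, which encodes cyclin B1, fell 2.32-fold (adjusted p = 1.14e-05), the passenger complex gene Birc5 2.19-fold (adjusted p = 1.31e-05) and the checkpoint kinase gene Bub1 2.28-fold (adjusted p = 1.54e-05). Cenpe fell from 97.2 ± 11.5 to 44.5 ± 3.86 CPM (2.18-fold, adjusted p = 3.01e-05) and was not called in p16 cells (log2 fold change -0.26, adjusted p = 0.116). The 2 genes not called in p21 cells were Kank1 and Mapre1 (log2 fold change 0.01 and 0.11, adjusted p = 0.895 and 0.197).

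Of 19 tested adaptors and light chains of transport kinesins, 7 were higher and 1 lower in p21 than in control cells, with a median log2 fold change of 0.08. The share called, 42.1%, was near the 39.9% of all genes tested. Between p16 and control cells the counts were 0 and 1, and between p21 and p16 cells 1 and 0. In these 2 comparisons 7.22% and 12.8% of all genes tested were called. Arl8a and Arl8b, the lysosomal GTPases that recruit kinesin-1 and kinesin-3, rose 1.32-fold and 1.23-fold in p21 cells (adjusted p = 0.000989 and 0.00174), the light chain gene Klc4 rose 1.42-fold (adjusted p = 0.00239) and the scaffold gene Spag9 1.14-fold (adjusted p = 0.00638). Of 23 cytoplasmic dynein and dynactin genes, which form the motor of the opposite direction, 11 were higher and 2 lower in p21 than in control cells, with a median of 0.18, where 19.3% of all genes tested were called higher and 20.7% lower. The light chain gene Dynlt3 rose most clearly (76.9 ± 5.16 to 123.6 ± 5.78 CPM, 1.61-fold, adjusted p = 9.3e-05), followed by Dctn2 (1.19-fold, adjusted p = 0.000824), Dync1li2 (1.16-fold, adjusted p = 0.00153) and Ndel1 (1.17-fold, adjusted p = 0.00179).

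Intraflagellar transport genes, which encode the trains that kinesin-2 pulls, counted 1 higher and 5 lower of 21 in p21 relative to control cells, with a median of -0.09, and 0 in both other comparisons. Those were p16 against control and p21 against p16 cells, with 7.22% and 12.8% of all genes tested called. The share called lower in p21 relative to control cells, 23.8%, was near the 20.7% of all genes tested. Ift80 (1.31-fold, adjusted p = 0.00415), Ift81 (1.21-fold, adjusted p = 0.0225), Ift88 (1.31-fold, adjusted p = 0.0243) and Ift27 (1.17-fold, adjusted p = 0.0307) were among the lower ones. Of 15 tubulins, the track proteins, 2 were higher and 3 lower in p21 relative to control cells, a share of 33.3% called where 39.9% of all genes tested were. Tubb5 fell from 1771 ± 61.5 to 1391 ± 90.1 CPM (adjusted p = 0.00081) and Tube1, of centrioles, from 3.53 ± 0.838 to 1.78 ± 0.435 CPM (adjusted p = 0.00576), while Tubb2a rose 1.26-fold (adjusted p = 0.00103) and Tubb4a 1.87-fold (adjusted p = 0.0104). Of the 10 tested Hedgehog genes read beside Kif7, 5 were lower and 0 higher in p21 than in control cells, where 20.7% of all genes tested were called lower. Gli2 fell 3.06-fold (adjusted p = 0.00269), Hhip 2.14-fold (adjusted p = 0.0273), Gli3 1.26-fold (adjusted p = 0.00715) and Smo 1.09-fold (adjusted p = 0.0366). In p16 against control cells 0 of the 10 were called, where 7.22% of all genes tested were.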

How the data were processed

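The authors deposited raw read counts per gene symbol for 9 libraries. The tools listed in the submitters' processing notes are featureCounts 1.4.6, TopHat2 2.0.14, Subread and Bowtie2 2.2.6, with build mm10. For annotation, strand setting and multi-mapping nothing is stated (not given in the sources used here). Groups and replicate numbers come from the titles. The members, lists and alternatives were chosen with earlier results of these data known.

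Counts were analysed with edgeR 4.0.16 in R 4.3.3: filterByExpr (14572 of 24062 genes kept, 5111 had no read), TMM, and 1 quasi-likelihood fit of the 3 group means, Benjamini-Hochberg adjustment over all genes tested and a threshold of 0.05. The SE is the log2 fold change over the root of F. The script was tested on simulated counts. Exon lengths and positions are from GENCODE M21 on GRCm38, the assembly of mm10, and sequences from RefSeq (GRCm38.p6). Exact tests of 3 against 3 libraries cannot go below p = 0.1 and were not used.

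Named were all tested mitotic members, other members called in any comparison, the 3 most abundant of these, and up to 4 called genes per partner list by adjusted p. Partners, markers and overlapping genes named outside this rule were chosen after their values were seen. Alternatives were other scalings, filters, DESeq2 1.42.0, the 2 groups alone, a replicate block, replicates 1 and 2, and each library left out.

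The numbers in the titles were checked for pairing by correlating deviations from group means of same-numbered libraries: 0.25, 0.11 and 0.55 for p16 and control, 0.16, 0.29 and 0.48 for p21 and p16, all above the limit of 0.1, and 0.18, 0.025 and 0.49 for p21 and control, not all above it. By that limit the numbers would pair p16 with each other group, from the data alone, yet not p21 with control. The same numbers cannot do both, so the check did not settle the pairing. The main fit left the numbers out, and the replicate block was run as an alternative. The evidence is weak: p16 replicate 2 correlated more with control replicate 1 (0.30) than with control replicate 2, and the highest values are those of replicate 3, the libraries with other sex-linked transcripts.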

Additional observations from a re-analysis of the deposited data

How the results depend on the processing

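The count of 12 mitotic kinesins lower in p21 than in control cells was 12 in every alternative run, and against p16 cells it was 11 or 12. The 7 mitotic kinesins lower in p16 than in control cells became 10 with library size alone, with DESeq2 or with the replicate block, 6 with the 2 groups alone, 4 with replicates 1 and 2 only and 1 to 7 with 1 library left out. The 2 other kinesins called between p16 and control cells became 1 with only the 2 groups compared, 3 with DESeq2, 4 with the replicate block, 1 with replicates 1 and 2 only and 1 to 2 with 1 library left out. The 6 called between p21 and p16 cells, 5 higher and 1 lower, became 1 to 6 with 1 library left out. They were 7 higher and 2 lower with the replicate block, 4 and 1 with no low-count filter, and 5 and 0 with replicates 1 and 2 only. Between p21 and control cells, 9 other kinesins were higher and 3 lower. These became 10 and 5 with the block, 8 and 4 with library size alone, and 7 and 2 without control replicate 2 or p21 replicate 1. The replicate block, where p21 and control numbers do not pair by the limit, also called Kif21b, Kif2a and Kif5c between those groups (adjusted p = 0.0264, 0.0183 and 0.0218, edgeR); besides the calls given in the report it changed no other call of a member. Of 1938 recomputed values of members, 77 lost and 21 gained a call, and 0 reversed while called. Over all genes between p16 and control cells, 520 were higher and 532 lower, against 444 and 683 by library size alone, 935 and 885 with DESeq2, 1252 and 1221 with the block, 299 and 256 with the 2 groups alone, 340 and 253 with replicates 1 and 2, and as few as 156 and 66 without p16 replicate 2. Between p21 and p16 cells, 902 and 968 became 1715 and 1781 with the block and 284 and 316 without p21 replicate 1. The causes of these differences were not tested. Depth limits Kif17, Kif26a, Kif27 and Kif9, whose levels lie near or under 1 CPM.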
